A study of Rattus norvegicus with 29 samples.

Results

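Actg2, Myl9 and Synpo2 are 3 genes of the contractile machinery of smooth muscle, and they were chosen by name as the rows of the expression table that carry these symbols. They are 3 of the 14557 genes that had a row of their own, and each of them had exactly 1 row. Duodenal RNA of 29 rats that had undergone bariatric or sham surgery was hybridised to Affymetrix arrays, 1 for each animal. The groups were Roux-en-Y gastric bypass (RYGB, 6 arrays), its sham operation (5 arrays), vertical sleeve gastrectomy (VSG, 6 arrays), a VSG sham group that was pair-fed (6 arrays) and a VSG sham group for which no pair feeding is named (6 arrays). Every animal was a male wild-type (WT) Long-Evans rat aged 8-10 weeks, put on the liquid diet Osmolite the day before surgery and operated on under isoflurane. In VSG most of the stomach was cut away along the greater curvature, while the sham operation pressed on the stomach with forceps. No pair-fed sham was made for RYGB, so bypass and any change in food intake cannot be told apart in that comparison. The sources used here do not give the time between surgery and sampling or which layers of the wall were kept.

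Smooth muscle of the gut wall shortens when calcium entering the cell activates myosin light chain kinase, which phosphorylates the regulatory light chain of myosin and lets myosin pull on actin filaments. Actg2 encodes the gamma smooth muscle actin that forms those thin filaments in visceral muscle. Myl9 encodes the regulatory light chain that the kinase phosphorylates, and Synpo2 encodes synaptopodin-2 (myopodin), an actin-bundling protein that also binds filamin and alpha-actinin. The contractile genes of smooth muscle are commonly driven by serum response factor with its coactivators myocardin and the myocardin-related factors, which bind a DNA motif known as the CArG box.

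The promoter windows that RefSeq gives for these genes (build GRCr8) each show the sequence around an annotated start site, where motifs shared by muscle genes were looked for. Each window runs from 250 bases before an annotated start to 50 bases after it, with the 50 bases from the start onward in capitals. The Synpo2 window is chr2:214055795-214056094 on the minus strand. The Actg2 window is chr4:117593990-117594289, also on the minus strand, and its start lies 10340 bases inside the gene's outermost start. The sequence before that outermost start of Actg2 is thus not in the window and was not searched. Myl9 has no entry in the promoter table used.
Actg2: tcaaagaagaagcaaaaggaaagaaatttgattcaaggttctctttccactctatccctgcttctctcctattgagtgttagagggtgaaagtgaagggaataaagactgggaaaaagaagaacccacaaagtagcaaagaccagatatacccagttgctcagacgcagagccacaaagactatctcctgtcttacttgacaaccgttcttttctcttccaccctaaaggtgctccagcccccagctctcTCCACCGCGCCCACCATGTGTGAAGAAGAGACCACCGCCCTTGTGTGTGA
Synpo2: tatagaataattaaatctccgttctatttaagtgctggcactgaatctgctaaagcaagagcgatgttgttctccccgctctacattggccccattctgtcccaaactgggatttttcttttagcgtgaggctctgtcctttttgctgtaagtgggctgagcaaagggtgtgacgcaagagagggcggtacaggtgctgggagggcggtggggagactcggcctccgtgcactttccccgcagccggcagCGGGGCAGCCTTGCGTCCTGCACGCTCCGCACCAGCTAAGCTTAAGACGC
Neither window held a match, on either strand, to the CArG box or to the M-CAT element CATTCC, another motif of muscle promoters. The CArG box was in 1.64% of the 33469 windows of all genes and in 2 of the 61 windows of muscle genes, those of Dapk3 and Srf. The M-CAT element was in 14.2% of all windows and in 8 of the 61 muscle windows (13.1%), among them those of Flna, Flnc, Mylk and Vcl. A window without these letters says nothing about sites elsewhere in the gene.

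All values are log2 RMA values, on which a difference of 1 is a doubling, and levels are compared between arrays for 1 gene at a time. Actg2 measured 10.19, 10.73, 10.36, 10.77, 11.23 and 11.03 on the 6 RYGB arrays, against 10.72, 11.04, 11.35, 11.19 and 11.01 on the 5 RYGB sham arrays. RYGB replicates 1 and 3 lay below every sham array, while the highest RYGB array lay above 4 of the 5, so the groups overlapped. In VSG, Actg2 measured 10.63, 10.98, 10.57, 10.87, 11.50 and 10.76. It measured 10.96, 10.60, 10.67, 11.001, 11.03 and 10.61 in pair-fed sham, and 10.72, 11.02, 10.95, 11.38, 11.08 and 10.90 in VSG sham. VSG replicate 5 was the highest Actg2 array of the series, and the other VSG arrays lay within the range of the 2 sham groups of that surgery or just below it.

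Myl9 moved over a narrower range. It measured 9.18, 9.42, 9.30, 9.39, 9.58 and 9.54 on the RYGB arrays, against 9.38, 9.40, 9.30, 9.12 and 9.46 on the RYGB sham arrays. These groups lay on top of each other. VSG arrays were at 9.09, 9.59, 9.14, 9.42, 9.59 and 9.44, pair-fed sham arrays at 9.31, 9.11, 9.47, 9.35, 9.40 and 9.03, and VSG sham arrays at 9.39, 9.59, 9.70, 9.99, 9.59 and 9.48. The VSG sham arrays had the highest mean, and 5 of the 6 lay above every pair-fed sham array.

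Of the 3 genes, Synpo2 had the largest share of its variance between groups. It measured 6.24, 6.17, 6.83, 6.42, 6.80 and 6.43 in RYGB, against 6.90, 6.85, 6.39, 6.90 and 7.08 in its sham. RYGB replicates 3 and 5 were high among their group but lay below every sham array other than replicate 3. Sham replicate 3 was low among its group, and the groups overlapped only through this array. VSG arrays were at 6.90, 6.73, 6.71, 6.79, 7.16 and 7.03, pair-fed sham arrays at 6.78, 6.47, 6.46, 6.60, 6.86 and 6.70, and VSG sham arrays at 7.03, 7.11, 6.99, 7.31, 6.74 and 6.83. All 6 VSG arrays lay above the pair-fed mean, and all 6 pair-fed arrays lay below the VSG sham mean.

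**Figure D1:**
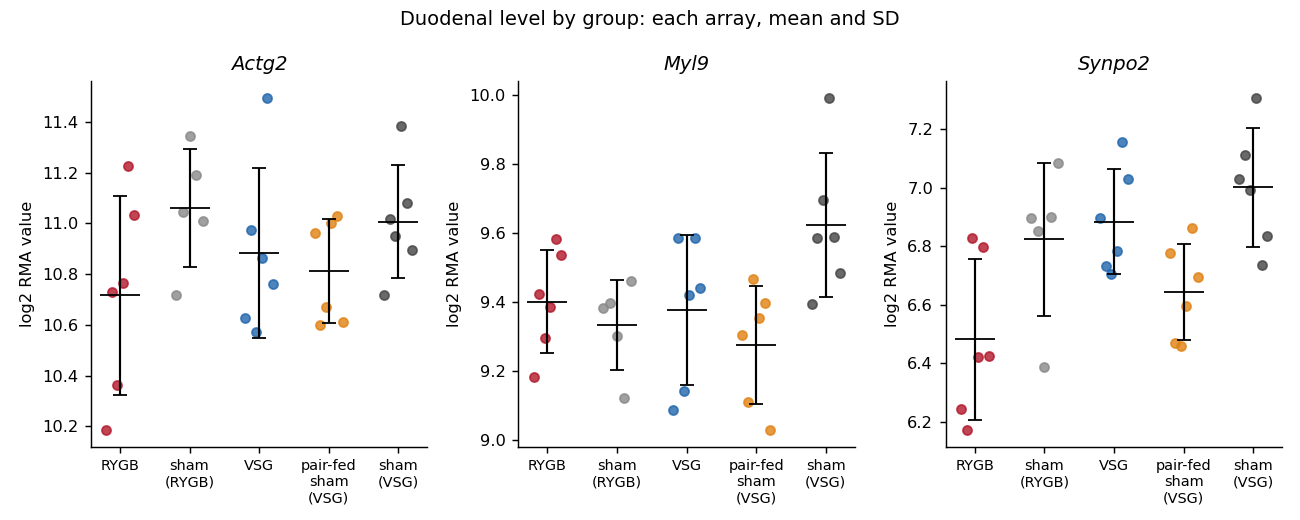
Each point is 1 array, with the log2 RMA value on the vertical axis and the 5 groups along the horizontal axis; the long bar is the group mean and the error bar its SD. Synpo2 averaged 6.48 in RYGB and 6.82 in its sham, and all groups of all 3 genes overlap with their comparison group.

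The order of the groups was not the same for the 3 genes. Actg2 averaged 10.72 ± 0.39 in RYGB, 11.06 ± 0.23 in its sham, 10.88 ± 0.34 in VSG, 10.81 ± 0.21 in pair-fed sham and 11.01 ± 0.22 in VSG sham (SD, n = 6 each, 5 in the RYGB sham). Myl9 averaged 9.40 ± 0.15, 9.33 ± 0.13, 9.38 ± 0.22, 9.28 ± 0.17 and 9.62 ± 0.21 in the same groups. For Synpo2 the means were 6.48 ± 0.28 in RYGB, 6.82 ± 0.26 in its sham, 6.88 ± 0.18 in VSG, 6.64 ± 0.16 in pair-fed sham and 7.002 ± 0.20 in VSG sham. RYGB was thus lowest for Actg2 and Synpo2 and in second place for Myl9, whose lowest group was pair-fed sham. No group differed from its neighbour in any of the 3 orders at an adjusted p under 0.05 (limma, smallest adjusted p = 0.321, for RYGB and VSG sham in the order of Myl9).

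Across the 5 groups at once, none of the 3 genes passed the moderated F test of limma, in which 3.75% of the 14557 genes were called at an adjusted p under 0.05. Synpo2 came closest (F = 5.16, adjusted p = 0.0662), followed by Myl9 (F = 2.895, adjusted p = 0.280) and Actg2 (F = 1.42, adjusted p = 0.616). The Synpo2 result sat at the threshold. It passed without RYGB replicate 3 (adjusted p = 0.0372), RYGB replicate 5 (0.0385), RYGB sham replicate 3 (0.0255) or VSG sham replicate 5 (0.0465). Without any other single array it did not pass, and its adjusted p reached 0.151. Under other settings of the fit the adjusted p of this F test reached 0.353. Group membership accounted for 46.7% of the variance of Synpo2, 34.9% of that of Myl9 and 18.1% of that of Actg2, against a median of 16.5% over all genes tested. The pooled SD within groups was 0.219 for Synpo2, 0.180 for Myl9 and 0.289 for Actg2, with a median of 0.256 over all genes. Des (desmin, the intermediate filament of muscle) and Tagln (transgelin, an actin-binding protein of smooth muscle) had within-group SDs like that of Actg2, at 0.293 and 0.288.

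After RYGB, Actg2 and Synpo2 were lower than in the RYGB sham by similar amounts and Myl9 was not. Actg2 differed by -0.34 ± 0.17 (SE, 95% interval -0.69 to 0.003, adjusted p = 0.358) and was below the sham mean on 5 of 6 RYGB arrays. Synpo2 also differed by -0.34, with an SE of 0.13 (95% interval -0.62 to -0.07, unadjusted p = 0.0162, adjusted p = 0.203), again with 5 of 6 arrays below the sham mean. Myl9 differed by 0.07 ± 0.11 (95% interval -0.17 to 0.30, adjusted p = 0.866), with 4 of 6 arrays above the sham mean. None of the 3 passed the adjusted test in this comparison, where 2.64% of all genes did. In a homogenised tissue, fewer muscle cells in the sample and less of an RNA per muscle cell cannot be told apart.

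VSG against its sham gave differences nearer 0 for Actg2 and Synpo2. Actg2 differed by -0.12 ± 0.16 (95% interval -0.46 to 0.21, adjusted p = 0.885) and Synpo2 by -0.12 ± 0.13 (95% interval -0.38 to 0.14, adjusted p = 0.856). Myl9 was lower in VSG by 0.25 on the log2 scale (difference -0.25 ± 0.11, 95% interval -0.47 to -0.02, unadjusted p = 0.0320, adjusted p = 0.515), and all 6 VSG arrays lay below the sham mean. In this comparison 0.179% of all genes were called, and none of the 3. The difference between the effects of the 2 surgeries was tested directly: it was -0.22 ± 0.23 for Actg2 (adjusted p = 0.887), 0.32 ± 0.16 for Myl9 (adjusted p = 0.598) and -0.22 ± 0.19 for Synpo2 (adjusted p = 0.828). So none of the genes was shown to respond differently to bypass and sleeve, in a contrast that called 0.392% of all genes.

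Pair feeding addresses how far eating less, without the sleeve, goes with a change in these genes. Pair-fed sham differed from VSG sham by -0.35 ± 0.11 for Myl9 (95% interval -0.57 to -0.12, unadjusted p = 0.00360, adjusted p = 0.638). For Synpo2 the difference was -0.36 ± 0.13 (95% interval -0.62 to -0.10, unadjusted p = 0.00882, adjusted p = 0.755), and for Actg2 -0.19 ± 0.16 (95% interval -0.53 to 0.14, adjusted p = 0.944). All 6 pair-fed arrays lay below the VSG sham mean for Myl9 and for Synpo2, and 5 of 6 did for Actg2. No gene of the 14557 passed the adjusted test between pair-fed sham and sham (0% called), while 811 (5.57%) had an unadjusted p under 0.05 in limma.

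Against pair-fed sham, VSG was higher in Synpo2 by 0.24 ± 0.13 (95% interval -0.02 to 0.50, adjusted p = 0.504), with all 6 VSG arrays above the pair-fed mean. It was higher by 0.10 ± 0.11 in Myl9 (95% interval -0.12 to 0.32, adjusted p = 0.798) and by 0.07 ± 0.16 in Actg2 (95% interval -0.26 to 0.40, adjusted p = 0.922). None passed, in a comparison that called 0.508% of all genes. The signs for Actg2 and Myl9 were not stable here: without the arrays rich in pancreas transcripts (a mean above 7 over 17 genes of the exocrine pancreas), the differences were -0.14 and -0.12. Without VSG replicate 5, the Actg2 difference was -0.05. The comparisons of VSG with sham, of VSG with pair-fed sham and of pair-fed sham with sham share their arrays, so their values are set side by side and are not independent of each other.

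The shams of the 2 surgeries were not alike in every gene either. VSG sham was higher than RYGB sham by 0.29 ± 0.11 in Myl9 (95% interval 0.06 to 0.53, unadjusted p = 0.0169, adjusted p = 0.880), and all 6 VSG sham arrays lay above the RYGB sham mean. The difference was 0.18 ± 0.13 in Synpo2 (adjusted p = 0.975) and -0.05 ± 0.17 in Actg2 (adjusted p = 0.993). No gene was called between the shams (0% of 14557, against 757 or 5.2% at an unadjusted p under 0.05 in limma). The Actg2 difference was 0.02 without RYGB sham replicate 3 and 0.004 without VSG sham replicate 1. Synpo2 had its widest gap between RYGB and VSG sham, groups of different surgeries that were picked after their means were seen. That difference was -0.52 ± 0.13 (adjusted p = 0.0149 in a comparison that called 3.76% of all genes), with all 6 RYGB arrays below the VSG sham mean. It held its call without any single array (adjusted p from 0.00705 to 0.0492) and lost it without the arrays rich in pancreas transcripts (-0.59, adjusted p = 0.0971).

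**Figure D2:**
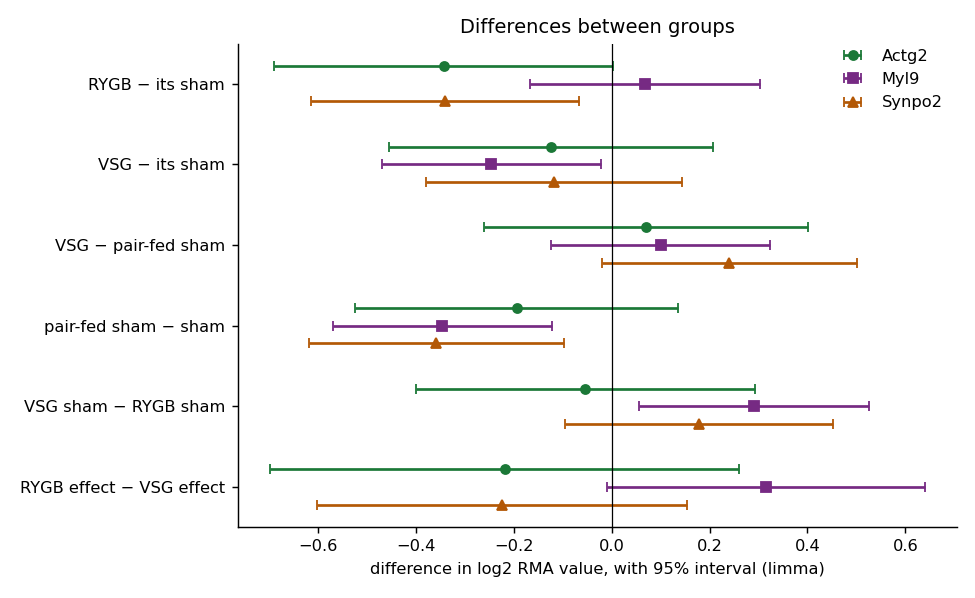
The horizontal axis is the difference in log2 RMA value between the groups named at the left, first minus second; points are limma estimates for the 3 genes and bars their 95% intervals, with a line at 0. Synpo2 and Myl9 in pair-fed sham against sham (-0.36 and -0.35) lie to the left of 0 with their whole interval. So do Synpo2 in RYGB against its sham (-0.34) and Myl9 in VSG against its sham (-0.25). Myl9 in VSG sham against RYGB sham (0.29) lies to the right with its whole interval. None of these passed after adjustment over all genes.

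Over the 29 arrays, Actg2 and Myl9 varied together within groups, though not in every group. This was measured as the correlation of each array's deviation from its own group mean, so that differences between groups play no part, and p-values come from permuting arrays inside groups and were adjusted over a family of 45 correlations. Over the 29 arrays Pearson's r of Actg2 and Myl9 was 0.667 (permutation p = 0.00016, adjusted p = 0.0024) and Spearman's rho was 0.623 (permutation p = 0.00102, adjusted p = 0.0153). Without the 2 arrays farthest from the median in Actg2 the value was 0.615. Inside single groups of 6 arrays r was 0.987 in RYGB (exact permutation p = 0.00417, adjusted p = 0.0312), 0.792 in VSG (exact p = 0.0444, adjusted p = 0.133), 0.591 in pair-fed sham (exact p = 0.265) and 0.927 in VSG sham (exact p = 0.0153, adjusted p = 0.0859). No value is given for the RYGB sham, which has 5 arrays, but its arrays ran the other way: the 2 highest in Actg2 (11.35 and 11.19) were the 2 lowest in Myl9 (9.30 and 9.12).

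Over the 29 arrays Synpo2 had lower correlations with the other 2 genes, and neither passed. Its r with Myl9 was 0.323 (permutation p = 0.0957, adjusted p = 0.255) and rho 0.297 (permutation p = 0.133), and without the 2 farthest arrays r was 0.239. The r was 0.398 (permutation p = 0.0470) without RYGB replicate 3 and 0.385 (permutation p = 0.0491) without pair-fed sham replicate 3, both before adjustment. With Actg2, r was 0.259 (permutation p = 0.239, adjusted p = 0.430) and rho 0.202 (permutation p = 0.352), and without the 2 farthest arrays r was 0.00095. Inside groups of 6 arrays, r of Actg2 with Synpo2 was 0.258 in RYGB, 0.628 in VSG, 0.661 in pair-fed sham and 0.479 in VSG sham (exact permutation p from 0.161 to 0.607). In pair-fed sham this was above the r of Actg2 with Myl9 (0.591). For Myl9 with Synpo2 it was 0.287 in RYGB, 0.351 in VSG, 0.054 in pair-fed sham and 0.636 in VSG sham (exact permutation p from 0.174 to 0.917). For Actg2 with Synpo2, RYGB replicate 3 and RYGB sham replicate 3 stand out. The first was low in Actg2 and high in Synpo2 for its group, and the second high in Actg2 and low in Synpo2. Whether the correlation of Actg2 with Myl9 differs from those with Synpo2 was not tested.

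**Figure D3:**
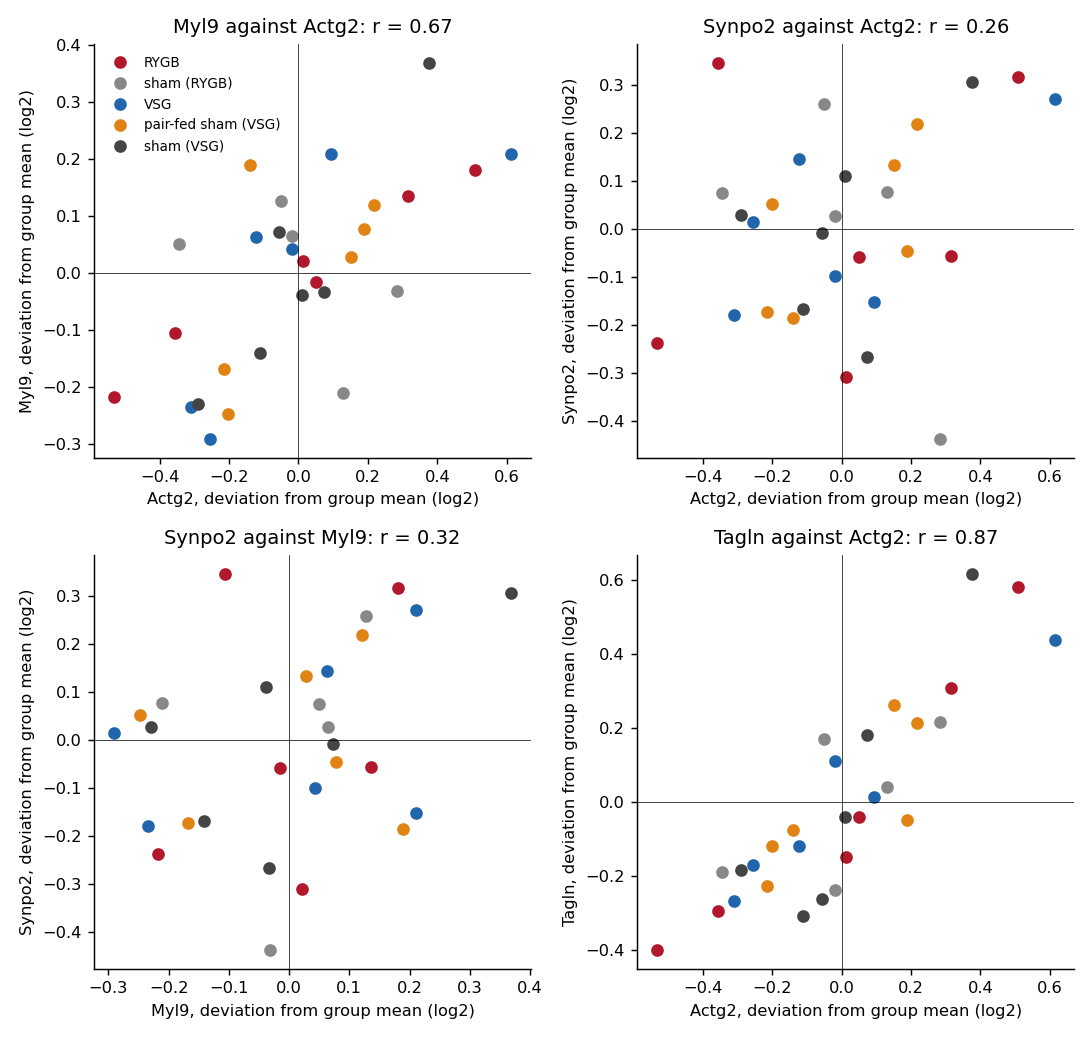
Each point is an array, coloured by group, and both axes are deviations from the group mean in log2 units. Actg2 and Myl9 (r = 0.67) and Actg2 and Tagln (r = 0.87) line up along a diagonal, while Synpo2 scatters against Actg2 (r = 0.26) and Myl9 (r = 0.32).

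Of the 5 genes whose deviations were most like those of Actg2 among all 14556 others, 3 were on the muscle lists (Tagln, Pcp4 and Pln). Tagln led with r = 0.874, followed by Lgals1 (galectin-1) at 0.872, Hspb6 (a small heat shock protein of muscle) at 0.846, Pcp4 (a calmodulin-binding peptide) at 0.829 and Pln (phospholamban, the inhibitor of the calcium pump of muscle stores) at 0.817. In all 58 genes had an r over 0.6 with Actg2, and 13 of them were among the other 71 measured genes of the muscle lists. For Myl9 the top genes were Tns1 (tensin 1, a focal adhesion protein) at 0.766, Abcg4 at 0.751, Zfp354a at 0.740, Rnf17 at 0.715 and Cfl2 (the muscle cofilin, which severs actin filaments) at 0.692. There 29 genes passed 0.6, 6 of them muscle genes. Synpo2 had Pcdh18 at 0.711, Plod2 (a collagen lysyl hydroxylase) at 0.649, Prr12 at 0.646, Msantd4 at 0.622 and Sipa1l2 at 0.618 as its nearest genes. Only 7 genes passed 0.6 with Synpo2, none of them on the muscle lists. These are the highest of many values over the same 29 arrays and are given as a description.

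Ranked by the mean of their r with all 3 genes, the leading genes were Abcg4 (0.655), Tns1 (0.642), Tagln (0.641), Actn1 (alpha-actinin 1, an actin crosslinker, 0.625), Pln (0.609), Pcp4 (0.602), Des (0.601), Flna and Flnc (filamins A and C, 0.578 and 0.567) and Rnf17 (0.561). Of these 10, the 7 that are not Abcg4, Tns1 or Rnf17 are muscle list genes. The median r of the 71 muscle genes was 0.22 with Actg2, 0.24 with Myl9 and 0.20 with Synpo2, where the medians over all genes were -0.01, -0.01 and 0.001. Probes of actins and light chains can take up RNA of near-identical relatives. The nonmuscle actin Actg1 had an r of -0.438 with Actg2 and the skeletal actin Acta1 one of 0.311. Myl12a and Myl12b, the closest relatives of Myl9, had r of -0.106 and 0.155 with it. What share of a row's signal comes from a relative was not tested.

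The mean of the other 10 measured smooth muscle markers correlated with all 3 genes. Its r was 0.805 with Actg2 (permutation p = 1e-05, the smallest these permutations can give, adjusted p = 0.00045), 0.684 with Myl9 (adjusted p = 0.0009) and 0.542 with Synpo2 (permutation p = 0.00686, adjusted p = 0.0441). For Synpo2 rho was 0.478 (adjusted p = 0.087), and r was 0.756 without the 2 arrays farthest in Synpo2. The mean of 11 markers of vascular smooth muscle and pericytes, which share part of this programme, had r of 0.603 with Actg2 (adjusted p = 0.0266), 0.610 with Myl9 (adjusted p = 0.0133) and 0.434 with Synpo2 (adjusted p = 0.133). No other list passed after adjustment for any of the 3 genes. By the adjusted p of Pearson's r, the nearest was the skeletal and cardiac muscle list with Actg2 (r = 0.468, adjusted p = 0.0899). Its rho with Actg2 was 0.464 (adjusted p = 0.0959), and its r was 0.392 with Myl9 (adjusted p = 0.133) and -0.007 with Synpo2. The fibroblast list reached an r of 0.509 with Actg2 (adjusted p = 0.133), with a rho of 0.287 (adjusted p = 0.531). The list of the pacemaker cells called interstitial cells of Cajal had an r of 0.431 with Myl9 (adjusted p = 0.133). Its rho there was 0.504 (adjusted p = 0.0851). For the endothelial list with Synpo2, r was 0.440 (adjusted p = 0.133) and rho 0.497 (adjusted p = 0.0851). Enterocyte markers lay between -0.02 and 0.11, adipose markers between -0.06 and 0.06, enteric neurons and glia between 0.109 and 0.275, and exocrine pancreas between -0.23 and 0.16.

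**Figure D4:**
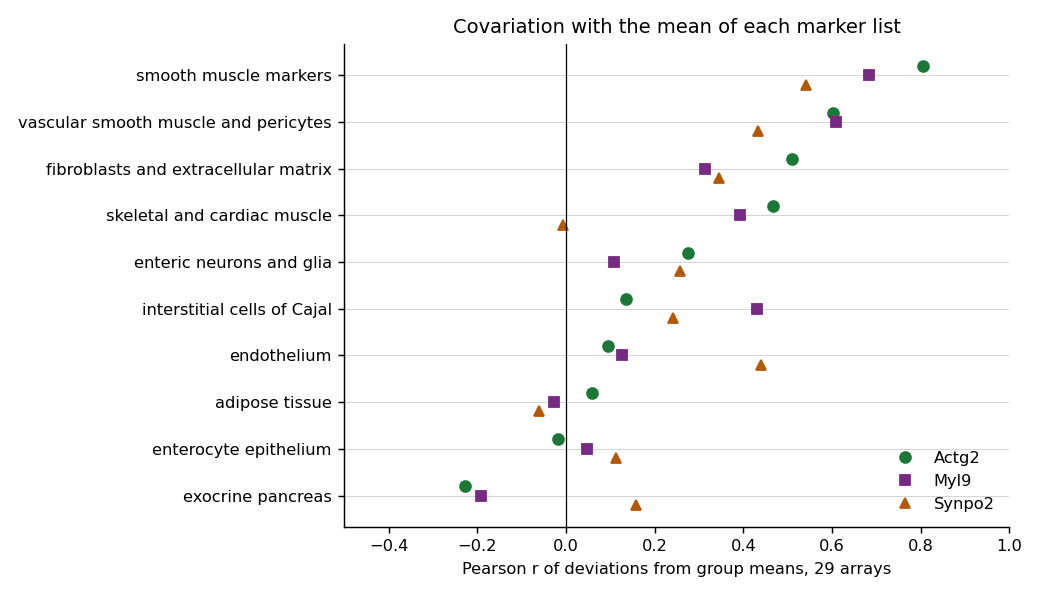
The horizontal axis is Pearson's r over 29 arrays between the deviations of a gene and those of the mean of a marker list, and each row is 1 list. The smooth muscle row reaches 0.805, 0.684 and 0.542 for Actg2, Myl9 and Synpo2, and the enterocyte row stays between -0.02 and 0.11.

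The tissue carried smooth muscle RNA on every array. Des ranged from 8.54 to 9.75 and Tagln from 8.92 to 10.22 over the 29 arrays, where the median of all rows was 2.80 to 2.97. Des averaged 8.87 ± 0.42 in RYGB, 9.08 ± 0.18 in its sham, 9.05 ± 0.26 in VSG, 8.98 ± 0.13 in pair-fed sham and 9.20 ± 0.35 in VSG sham. Tagln averaged 9.32 ± 0.38, 9.58 ± 0.21, 9.39 ± 0.25, 9.41 ± 0.19 and 9.60 ± 0.35 in the same groups (SD, n = 6 each, 5 in the RYGB sham). Both were lower in RYGB than in its sham, by 0.21 and 0.26, without passing the test (adjusted p = 0.642 and 0.555). Acta2, Myh11 and Cnn1, other reference genes of smooth muscle, were not analysed here. The 13 measured markers of skeletal and cardiac muscle were mixed, with group means of the list between 3.23 and 3.29. Myh4 lay between 1.10 and 1.89 and Myog between 1.72 and 2.76 over all arrays, while Acta1 lay between 6.62 and 7.89, Tnnt2 between 5.08 and 7.12 and Ckm between 4.42 and 6.01, above the array medians.

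The genes of the smooth muscle programme, taken from fixed lists by role, include Actg2, Myl9 and Synpo2 themselves. Of the 72 measured, 45 lay below 0 between RYGB and its sham and 27 above, and few passed. Of 72 measured muscle genes 0 rose, 2 fell and 70 did not pass between RYGB and its sham, a share near the 2.64% called over all genes. At an unadjusted p under 0.05, 15 were lower and 3 higher, where 7.3% and 6.82% of all genes were. Synpo2 was itself among the 15. The median difference of the 72 genes was -0.09, against 0.003 over all genes. Of the 2 genes that fell, Vim is on the contractile filament list and Gucy1b1 on that of channels, receptors and calcium stores. Vim, vimentin, is the intermediate filament of mesenchymal cells in general. It averaged 8.17 ± 0.35 in RYGB and 8.60 ± 0.15 in its sham (-0.43 ± 0.12, adjusted p = 0.0471). Gucy1b1, a subunit of the nitric oxide receptor guanylate cyclase, which relaxes smooth muscle, averaged 4.67 ± 0.47 in RYGB and 5.31 ± 0.22 in its sham (-0.63 ± 0.18, adjusted p = 0.0499).

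Both calls were at the threshold and hung on single arrays. The count of called muscle genes was 0 without RYGB replicate 1, 2, 3 or 6 or without RYGB sham replicate 1, 2 or 5. It was 1 without RYGB sham replicate 3 or 4, 4 without RYGB replicate 4 and 7 without RYGB replicate 5. It was also 0 without the arrays rich in pancreas transcripts. Just short of a call in the same comparison stood Cav1 (caveolin 1, the scaffold of membrane caveolae) at -0.57 ± 0.17 (adjusted p = 0.0593), Ptgs1 (cyclooxygenase 1) at -0.43 ± 0.13 (adjusted p = 0.0638) and Itga5 (integrin alpha 5) at -0.54 ± 0.17 (adjusted p = 0.0999).

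By role, the 6 measured contractile filament genes had a median of -0.24 after RYGB, the 11 genes of light chain phosphorylation 0.01, the 20 crosslinker and adhesion genes -0.12, the 8 transcription factors 0.04 and the 26 genes of channels, receptors and calcium stores -0.16. Actg2 and Myl9 are themselves among the contractile filament genes, and Synpo2 is among the crosslinker and adhesion genes. The 13 smooth muscle markers overlap these lists and also include the 3 genes. They had a median of -0.23, with 11 of the 13 below 0 and 0 called. Without RYGB replicate 5, the array highest in Actg2 of its group, 2 of the 13 were called, Actn1 (-0.57, adjusted p = 0.0476) and Kcnmb1 (the beta 1 subunit of the calcium-activated potassium channel, -0.50, adjusted p = 0.0483). The mean of the 10 markers other than the 3 genes spanned 6.92 to 7.86 in RYGB against 7.39 to 7.63 in its sham. Of the RYGB arrays 5 lay below every sham array, the highest of them at 7.37, and replicate 5 lay above every sham array.

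In the other comparisons none of the 72 muscle genes passed. For VSG against its sham, 12 of the 13 smooth muscle markers, the 3 genes included, were below 0, with a median of -0.13. Of the 72 muscle genes, 3 had an unadjusted p under 0.05 there (8.99% of all genes did). The median of the 72 was -0.06. The 5 with the smallest p were Gucy1a1 (the partner subunit of the nitric oxide receptor, -0.51 ± 0.20), Pcp4 (-0.43 ± 0.18), Myl9, Ppp1r14a (an inhibitor of the phosphatase that removes phosphate from the light chain, -0.35 ± 0.20) and Mustn1 (-0.25 ± 0.14), with adjusted p from 0.438 to 0.648. VSG against pair-fed sham had 5 (median 0.02), led by Ptger3 (a prostaglandin E2 receptor, -0.36 ± 0.14) and Zyx (zyxin, a focal adhesion protein, 0.36 ± 0.14), then Synpo2l (-0.25 ± 0.11), Tln1 (talin 1, 0.20 ± 0.09) and Chrm2 (a muscarinic receptor, 0.34 ± 0.16). Their adjusted p ran from 0.294 to 0.451, and 11.1% of all genes had an unadjusted p under 0.05 there. Of the 13 smooth muscle markers 10 were above 0 in that comparison, with a median of 0.07.

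Pair-fed sham against sham had 11 muscle genes at an unadjusted p under 0.05, of which 8 were lower and 3 higher (2.46% and 3.11% of all genes were), and the median was -0.05, against 0.01 over all genes. Among the 13 smooth muscle markers, which include the 3 genes themselves, 12 were below 0, with a median of -0.22. An unadjusted p under 0.05 was reached by 4 of the 13. Myl9 and Synpo2 were among these 4, and also among the 8 lower muscle genes. Synpo2l, a relative of Synpo2 known from striated muscle, differed by 0.37 ± 0.11 and so in the opposite direction to Synpo2. Its values were 2.45 to 2.83 in pair-fed sham and 1.90 to 2.78 in sham, mostly below the array medians. Chrm2 differed by -0.47 ± 0.16 and Htr2b (a serotonin receptor) by -0.52 ± 0.22. None of these passed (adjusted p from 0.572 to 0.855). Between VSG sham and RYGB sham 10 of the 13 smooth muscle markers were above 0, with a median of 0.08. In that comparison 3 muscle genes had an unadjusted p under 0.05, where 5.2% of all genes did. Beside Myl9, the smallest p were those of Synpo2l (-0.26 ± 0.11), Barx1 (a transcription factor of gut mesenchyme, 0.26 ± 0.13), Lmod1 (leiomodin 1, which starts actin filaments in smooth muscle, 0.31 ± 0.15) and Abcc9 (a subunit of the ATP-sensitive potassium channel, 0.22 ± 0.13). For the difference between the surgeries' effects the smallest p were those of Zyx (-0.51 ± 0.20), Vim (-0.38 ± 0.17), Trpc4 (a calcium-permeable cation channel, -0.58 ± 0.27), Abcc9 (0.37 ± 0.18) and Gucy1b1 (-0.49 ± 0.25), with adjusted p from 0.435 to 0.589. There 3 muscle genes had an unadjusted p under 0.05, against 8.58% of all genes. Of the genes named in these comparisons, Synpo2l, Ptger3, Barx1 and Trpc4 averaged 2.46, 2.74, 2.79 and 2.15 over all arrays, below the array medians.

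**Figure D5:**
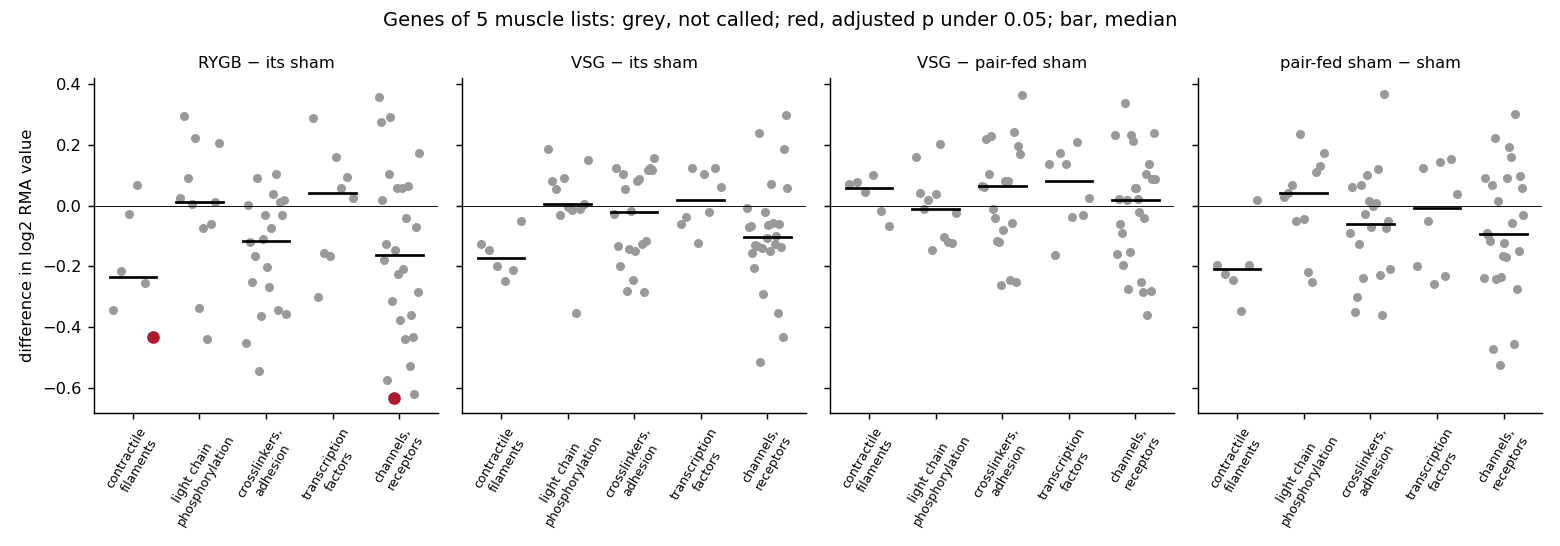
The vertical axis is the difference in log2 RMA value, first group minus second, for each gene of the 5 muscle function lists in 4 comparisons; bars are list medians and red points passed an adjusted p of 0.05. The contractile filament genes, Actg2 and Myl9 among them, have a median of -0.24 in RYGB against its sham. In that comparison the 2 red points are Vim (-0.43) and Gucy1b1 (-0.63).

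Some markers of other cell types also differed between RYGB and its sham. All 17 measured genes of the fibroblast and matrix list were below 0 between RYGB and its sham, with a median of -0.33. Of these, 3 passed the test, where 2.64% of all genes did, and that number was 0 without RYGB replicate 1 or 6, RYGB sham replicate 4 or the arrays rich in pancreas transcripts, and 6 without RYGB replicate 4 or 5. The list mean spanned 5.45 to 6.14 on RYGB arrays against 6.12 to 6.30 on those of its sham. In pair-fed sham it spanned 6.11 to 6.22, against 6.20 to 6.37 in VSG sham. Of 16 genes of enteric neurons and glia 14 were below 0 between RYGB and its sham (median -0.18), and 1 fell. The list mean spanned 3.22 to 3.57 in RYGB against 3.45 to 3.89 in its sham. Of 11 genes of vascular smooth muscle and pericytes 9 were below 0 (median -0.22) and 0 were called, with list means of 4.43 ± 0.17 in RYGB and 4.604 ± 0.06 in its sham (SD, n = 6 and 5). Of 8 adipose genes 2 fell, 3 were below 0 and 5 above, and the median was 0.05. The lowest difference among them was -2.06. The list mean spanned 4.37 to 4.80 in RYGB against 4.87 to 5.03 in its sham. Of the list members, Adipoq, Lep and Plin1 averaged 2.11, 2.24 and 2.66 over all arrays, below the array medians. Cidec, Fabp4 and Pck1 averaged 8.67, 8.42 and 7.09. Without the arrays rich in pancreas transcripts the counts of called genes were 0 for neurons and glia and 1 for adipose genes. The part of these cells in the differences of Actg2, Myl9 and Synpo2 was not tested.

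Transcripts of the exocrine pancreas, which lies against the duodenum, varied far more than the muscle genes. The mean of 17 such genes spanned 2.93 to 8.60 on the RYGB arrays against 2.65 to 5.45 on those of its sham. In VSG it spanned 4.46 to 8.04, in pair-fed sham 2.54 to 8.77 and in VSG sham 2.71 to 7.82. It lay above 7 on 3 RYGB, 0 RYGB sham, 3 VSG, 2 pair-fed and 1 VSG sham arrays. With this mean as a covariate, the difference between RYGB and its sham was -0.23 for Actg2 (adjusted p = 0.715), 0.13 for Myl9 and -0.40 for Synpo2 (adjusted p = 0.271). For pair-fed sham against sham it was -0.34 for Myl9 and -0.37 for Synpo2. The size of the differences in Synpo2 and in Myl9 under pair feeding was thus much the same with the covariate, and that of Actg2 after RYGB was smaller.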

How the data were processed

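Per the submitters' processing notes, the authors made the deposited log2 values with RMA in Affymetrix Expression Console 1.3.0.187. As commonly run, RMA corrects background, quantile-normalizes arrays and summarises the probes of a set. The sources used here name neither the chip definition nor the genome build. Per the labels' protocols, RNA was extracted with RNeasy columns, amplified and biotin-labelled with Nugen kits. Array medians of 2.80 to 2.97 show a common scale, and no pair of arrays correlated above 0.977. Precision is limited by how many arrays there are, since arrays have no depth.

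Of 36685 rows, 14824 had 1 gene symbol in the platform annotation, 829 carried more than 1, and 21032 remained unnamed. Older symbols were replaced by way of Entrez numbers (154 not found). For each gene the row of highest mean was kept, which left 14557 genes.

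One limma fit (3.58.1, R 4.3.3) with 5 group means over 29 arrays gave contrasts and a moderated F test, with two-sided p adjusted by Benjamini-Hochberg over all genes and called under 0.05. Correlations used deviations from group means and 100000 permutations inside groups, or all permutations for 6 arrays. The script was tested on simulated data. The members and lists were chosen with earlier results of these data known. Named are the 3 genes, list members called in a comparison (at most 15, or the 5 with the smallest p where fewer than 5 were called), the 5 genes most like each gene, the 10 with the highest mean r, and Acta2, Myh11, Des, Tagln and Cnn1. Unnamed loci and olfactory, vomeronasal and immunoglobulin segment genes were passed over. Alternatives were averaging rows, dropping the 33.3% of genes with the lowest means, a trended and robust prior, centring, a further quantile normalization, array weights, the pancreas mean as covariate, fitting only the groups compared, the replicate block and leaving out each array. Leaving out arrays with a pancreas mean above 7 was chosen after seeing the data.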

Additional observations from a re-analysis of the deposited data

Results flagged for a closer look

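None of the 15 group-wise value sets of Actg2, Myl9 and Synpo2 held an array set far apart from the rest. Among 200 groups of values tested by Dixon's criterion over 40 named genes, 7 held such an array, where chance gives about 1 in 20. Gucy1b1 measured 5.63 in VSG sham replicate 6, against 5.02 to 5.09 on the others of that group. Itga5 measured 5.64 in VSG replicate 5, against 5.09 to 5.25. Flna measured 8.09 in the same VSG replicate 5, against 7.82 to 7.90. Ppp1r14a measured 7.34 in RYGB sham replicate 3, against 6.53 to 6.66. Barx1 measured 3.28 in RYGB replicate 1, against 2.75 to 2.94. Pcdh18 measured 5.38 in VSG sham replicate 1, against 5.59 to 5.69, and Plod2 measured 4.41 in VSG replicate 2, against 4.83 to 4.99.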

How the results depend on the processing

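For the 6 contrasts of Actg2, Myl9 and Synpo2, no alternative made a call. The F test of Synpo2 passed without the lowest 33.3% of genes by mean (F = 5.27, adjusted p = 0.0415). It also passed with a trended and robust prior (5.62, adjusted p = 0.0353) and with array weights (5.58, adjusted p = 0.0485). The remaining settings did not make it pass, and F went down to 3.56 and the adjusted p up to 0.353. Leaving out single arrays gave F from 4.08 to 6.60 and adjusted p from 0.0255 to 0.151. The cause was not tested. Without the arrays rich in pancreas transcripts the sign turned for Actg2 in VSG against pair-fed sham (-0.14), in VSG sham against RYGB sham (0.004) and in RYGB effect minus VSG effect (0.03), and for Myl9 in VSG against pair-fed sham (-0.12). With single arrays left out, Actg2 ran from -0.053 to 0.13 in VSG against pair-fed sham and from -0.14 to 0.017 between the shams. Called smooth muscle markers in RYGB against its sham numbered 0 to 2, and r of Myl9 with Synpo2 was 0.212 to 0.398. The r of Actg2 with Myl9 ran from 0.627 to 0.724 without single arrays and was 0.548 (permutation p = 0.0319) without the arrays rich in pancreas transcripts. The count of called muscle genes in RYGB against its sham, 2 as reported, was 0 to 7 without single arrays and 0 to 4 under the other settings, and the count for the fibroblast list, 3 as reported, was 0 to 6 and 0 to 5.

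With the replicate number as a block, the difference between RYGB and its sham was -0.34 for Actg2 (limma adjusted p = 0.298), 0.08 for Myl9 and -0.34 for Synpo2 (adjusted p = 0.242), and pair-fed sham against sham was -0.35 for Myl9 and -0.36 for Synpo2. The F of Synpo2 was 5.06 (adjusted p = 0.0897) and r of Actg2 with Myl9 was 0.544 (permutation p = 0.00378). Same-numbered arrays of different groups did not deviate together (28 pairs, r from -0.217 to 0.234, 3 of them over 0.1), so the numbers were not taken to pair the samples. The block changed no call of the 3 genes. It ended those of Vim (adjusted p = 0.0614) and Gucy1b1 (adjusted p = 0.0869) between RYGB and its sham.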

Other observations

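The difference between the genes on the same array, which cancels any factor that scales all of them alike, was compared after the group values had been seen, in 15 exact permutation tests of 3 gene pairs in 5 comparisons. Actg2 minus Myl9 averaged 1.32 ± 0.25 in RYGB (SD, n = 6) and 1.73 ± 0.32 in its sham (n = 5), a difference of -0.41 (exact p = 0.0433, adjusted p = 0.216). The same quantity averaged 1.38 ± 0.08 in VSG sham, which differed from RYGB sham by -0.35 (exact p = 0.0303, adjusted p = 0.216). Myl9 minus Synpo2 averaged 2.92 ± 0.27 in RYGB and 2.51 ± 0.26 in its sham, a difference of 0.41 (exact p = 0.0433, adjusted p = 0.216). Actg2 minus Synpo2 averaged 4.24 ± 0.42 in RYGB and 4.24 ± 0.45 in its sham, a difference of -0.002 (exact p = 0.991). None of the 15 passed after adjustment, and the direction was seen in the same arrays that raised the question.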
